A study of Mus musculus with 18 samples.

Results

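Fluvastatin given after hydrogen peroxide (H2O2) was compared with vehicle after H2O2 in cultures of primary mouse Leydig cells with a control siRNA. Leydig cells are the androgen source of the testis. The comparison set 3 siNC+H2O2+FV libraries against 3 siNC+H2O2 libraries, which are 6 of the 18 RNA-seq libraries of the series. It covered the 16432 genes with enough counts to be tested of 55487 in the table. The siNC+H2O2+FV cultures carried the control siRNA, had 200 µM H2O2 for 30 min and then 5 µM fluvastatin for 6 h. The siNC+H2O2 cultures carried the same siRNA, had the same H2O2 and then 0.1% DMSO for 6 h. Control siRNA cultures with DMSO and no H2O2 (siNC) are given beside them as levels only. The other arm, with an siRNA against Prdx1 (siprdx1) and otherwise the same 3 treatments, held 9 libraries that the control siRNA comparison did not use. No DMSO is recorded for the fluvastatin cultures, so as described the comparison also differed in vehicle, and no culture had fluvastatin without H2O2. The labels call the replicates biological without saying that they came from separate animals, so p-values measure the spread between these samples.

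Statins block the synthesis of mevalonate. Mevalonate feeds cholesterol synthesis and also the farnesyl and geranylgeranyl lipids that anchor Ras proteins and other small GTPases to membranes. When cells run low on sterol, the transcription factor SREBP2 raises the genes of sterol synthesis. The pool of free actin sets the activity of MRTF, a partner of the transcription factor SRF. Leydig cells draw on cholesterol to make steroid hormones.

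The 6 libraries held 17683846 to 23168229 counts, the common biological coefficient of variation over the series was 7.01%, and the first principal component (35.8% of variance) separated the fluvastatin libraries of both arms from the rest. Prdx1, the target of the other arm's siRNA, averaged 542 CPM (counts scaled by TMM to equal library sizes) in siprdx1+H2O2+FV and 524 CPM in siprdx1+H2O2, and in the control siRNA arm it had 1524, 1528 and 1459.5 CPM in siNC+H2O2+FV, against 1689.6, 1648 and 1558 CPM in siNC+H2O2. Its log2 fold change with fluvastatin was -0.12 ± 0.06 (adjusted p = 0.179), which did not pass, and it passed at -0.22 with scaling by library size alone. As a check of the cell label, the side-chain cleavage enzyme Cyp11a1 had 787, 779 and 802 CPM in siNC+H2O2+FV, against 778, 741 and 748 CPM in siNC+H2O2, while the later steroid enzymes Cyp17a1 and Hsd17b3 had 0 to 4 counts in each of the 6 libraries. Summed over 20 macrophage markers, the level was 9389 to 9483 CPM in siNC+H2O2+FV, 10605 to 11236 CPM in siNC+H2O2 and 9336 to 10149 CPM in siNC. The fluvastatin libraries thus lay below the siNC+H2O2 libraries and within the siNC range. Fibroblast markers summed to 19802 to 20714 CPM in siNC+H2O2+FV and 20661 to 21407 CPM in siNC+H2O2, and Sertoli markers to 1243 to 1388 CPM and 1186 to 1295 CPM. Endothelial markers summed to 99.6 to 100.9 CPM with fluvastatin and 103.5 to 104.2 CPM without, germ cell markers to 26.1 to 29.6 CPM and 23.1 to 26.7 CPM, and erythrocyte markers to under 1 CPM in all 6 libraries. Of the 10 germ cell markers 2, and of the 6 erythrocyte markers 3, had no count in any of the 6 libraries. In these bulk libraries fewer cells of a type and less RNA per cell cannot be told apart. How the counting treated strand is not given in the sources used here, so genes that share at least 500 exonic bases with another tested gene are uncertain, which below applies to Ccn2, Csf1r, Dbp, Fbn1, Fdft1, Fosl1, Kbtbd11, Lipe, Nab2, Nr2f2, Pde3a, Rap2b, Spry1, Tm7sf2, Txnip and Vcl. So are Acat2, Ifit3, Ifit3b, Lyz2 and Noct, which have near-identical stretches in other tested genes.

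By edgeR's quasi-likelihood test at a Benjamini-Hochberg adjusted p below 0.05, 2226 genes (13.5%) were higher and 1864 (11.3%) lower in siNC+H2O2+FV than in siNC+H2O2. Counts of list members called in siNC below are to be read against these shares of all genes. Most of these changes were small (log2 fold changes are given ± SE below), with a median log2 fold change of 0.43 among the higher and -0.41 among the lower genes. The large changes were mainly rises, as 406 genes (2.47%) were higher and 179 (1.09%) lower by at least 1 on the log2 scale, and 108 were higher against 15 lower by at least 2. The CPM ranges of the groups were apart for 3268 higher genes (19.9%) and 3121 lower genes (19.0%). Scaling by library size alone moved the median of all genes to -0.11, from -0.01, and gave 1474 higher and 3835 lower genes, so directions are relative to the median gene. It also moved 49 of 134 counts of list members called by over 1.5 times, among them the falls in the MHC class I list (13 of 17), the mitosis list (12 of 26) and the proteasome list (9 of 31). Protein-coding genes made up 90% of the higher and 92.5% of the lower genes, against 83.2% of all tested. The higher genes also had more exonic sequence, with a median of 5783 bases, against 3660 bases in the lower genes and 3892 bases in all tested.

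The largest rises among genes of at least 1 CPM were led by transcription factors that cells normally switch on within minutes of a stimulus. Egr3 (ENSMUSG00000033730, chromosome 14, 70077203 to 70082614, GRCm38 here and below), a zinc finger factor of the EGR family, had 458, 440.3 and 448 CPM in siNC+H2O2+FV, against 1.57, 2.17 and 2.20 CPM in siNC+H2O2. Its siNC libraries averaged 2.26 CPM, so the siNC+H2O2 libraries overlapped those without H2O2, and all 3 fluvastatin libraries were far above both. The log2 fold change was 7.80 ± 0.09 (adjusted p = 5.19e-25), a 224-fold difference. Nr4a3, an orphan nuclear receptor, had 191, 194 and 183 CPM in siNC+H2O2+FV, against 1.74, 1.96 and 2.29 CPM in siNC+H2O2. Nr4a1, a nuclear receptor of the same family that is known to act on steroidogenic gene promoters, had 1039, 1060.5 and 1192 CPM in siNC+H2O2+FV, against 46.1, 43.2 and 47.6 CPM in siNC+H2O2. In neither gene did the groups overlap, and the log2 fold changes were 6.55 ± 0.13 and 4.59 ± 0.08. All 7 tested EGR and NR4A members rose, with a median log2 fold change of 4.59, against 13.5% of all genes and a median of -0.01. Egr4 (6.14 ± 0.29), Egr2 (3.63 ± 0.06), Nr4a2 (1.50 ± 0.26) and Egr1 (0.80 ± 0.06) completed the family. Egr1 was the most abundant member in siNC+H2O2 and changed least, with 1136, 1131 and 1247 CPM in siNC+H2O2+FV, against 686, 654 and 685 CPM in siNC+H2O2. Nab2 (0.75 ± 0.09) and Nab1 (0.37 ± 0.08), the corepressors that bind EGR proteins, were higher too.

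AP-1, the dimer of FOS and JUN proteins, divided by subunit. Fosb had 375, 430.2 and 437 CPM in siNC+H2O2+FV, against 13.7, 14.9 and 15.7 CPM in siNC+H2O2, and Fosl1 had 94.7, 93.2 and 102 CPM in siNC+H2O2+FV, against 6.47, 4.70 and 4.92 CPM in siNC+H2O2. Both stood clear of the siNC+H2O2 libraries, with log2 fold changes of 4.80 ± 0.08 and 4.18 ± 0.10. Fos moved the other way, with 193, 209.9 and 211 CPM in siNC+H2O2+FV, against 261, 246 and 259.7 CPM in siNC+H2O2 and 19.4 CPM on average in siNC. Its log2 fold change was -0.32 ± 0.06 (adjusted p = 0.000507) and all 3 fluvastatin libraries lay above every siNC library. Jun had 0.18 ± 0.07 and did not pass (adjusted p = 0.0537). In all, 10 of 15 tested AP-1 and small MAF members rose and Fos alone fell, with a median of 0.71, and the other rises included Maff (2.75 ± 0.07), Atf3 (2.06 ± 0.07) and Junb (0.86 ± 0.09).

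Of 25 other early genes 22 rose and 1 fell, with a median of 1.30. Arc, an immediate early gene best known from neurons, had 394, 425 and 461 CPM in siNC+H2O2+FV, against 65.4, 61.7 and 69.4 CPM in siNC+H2O2 and 1.86 CPM on average in siNC. Csrnp1 (2.69 ± 0.08), the kinase gene Plk3 (2.49 ± 0.09), Myc (1.56 ± 0.07) and Ier3 (1.66 ± 0.07) were also higher, and Snai2, a repressor of the snail family, was the single fall (-0.99 ± 0.14). Other genes among the 16 largest rises were Noct (3.73 ± 0.08), Npas4 (3.52 ± 0.17), Eid3 (4.33 ± 0.28), Has1 (4.02 ± 0.56), which makes hyaluronan, and Ptgs2 (3.73 ± 0.15), the inducible prostaglandin synthase. Rassf6 had 34, 62 and 45 counts in siNC+H2O2+FV and 2, 0 and 0 in siNC+H2O2, a ratio of 70.4 (exact 95% interval 19.1 to 587, counting error only). Dlx3, a homeobox gene, had 46, 57 and 68 counts with fluvastatin and 0, 1 and 2 without, a ratio of 56.9 (19.2 to 279).

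**Figure D1:**
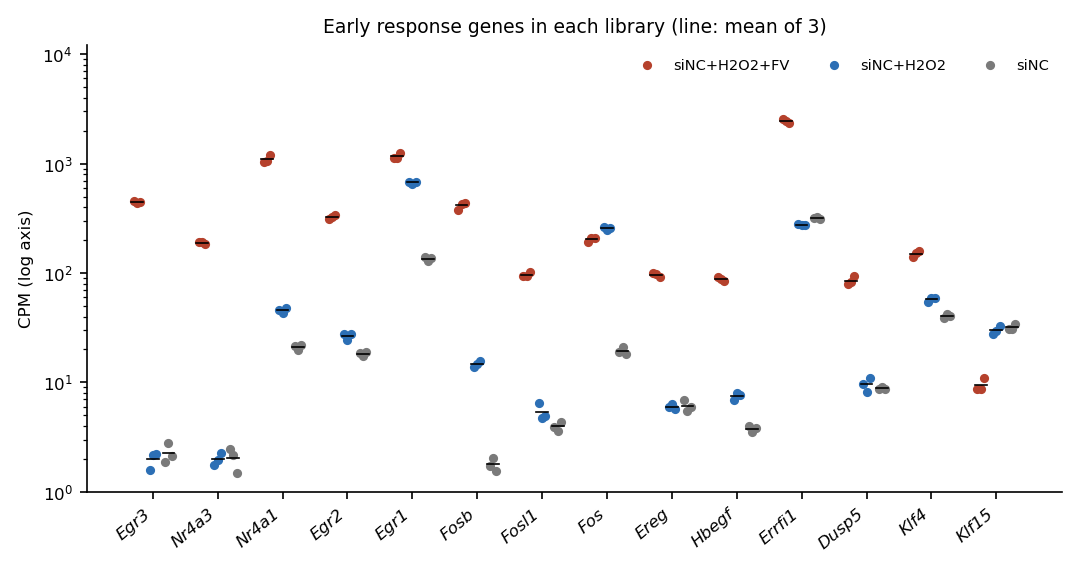
CPM on a log axis of 14 early response genes in each library of siNC+H2O2+FV (red), siNC+H2O2 (blue) and siNC (grey), with a line at the mean of 3. The red points lie above the blue ones for every gene shown except Fos and Klf15.

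Among Kruppel-like factors, which bind GC-rich promoters, 9 of 14 tested members rose and 1 fell (median 0.38). Klf10, an early target of TGF-beta signalling, had 287, 300.2 and 288 CPM in siNC+H2O2+FV, against 52.5, 50.3 and 51.1 CPM in siNC+H2O2. Klf7 (1.62 ± 0.06) and Klf4 (1.38 ± 0.06) followed, and Klf16 (0.78 ± 0.09), Klf3 (0.70 ± 0.07), Klf12 (0.55 ± 0.09), Klf9 (0.41 ± 0.07), Klf13 (0.35 ± 0.05) and Klf6 (0.35 ± 0.07) had smaller rises. Klf2, a factor known to rise with statins in endothelial cells, had 63.8, 67.7 and 75.6 CPM in siNC+H2O2+FV, against 61.6, 55.9 and 63.5 CPM in siNC+H2O2 and did not pass at 0.20 ± 0.09 (adjusted p = 0.119). Klf8 (0.15 ± 0.34), Klf11 (-0.04 ± 0.07) and Klf5 (-0.14 ± 0.10) did not pass either. Klf15, a regulator of amino acid and glucose metabolism, had 8.63, 8.67 and 10.9 CPM in siNC+H2O2+FV, against 27.7, 29.2 and 33.00 CPM in siNC+H2O2, and its 3 fluvastatin libraries lay below all 3 siNC+H2O2 libraries (-1.67 ± 0.10).

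Several ligands and brakes of the ERK pathway rose. Of 12 tested genes for EGF ligands, their receptors and receptor feedback, 5 rose and 1 fell (median 0.14). Ereg, the gene of epiregulin, had 99.8, 97.2 and 91.00 CPM in siNC+H2O2+FV, against 5.90, 6.40 and 5.69 CPM in siNC+H2O2, and Hbegf, another EGF receptor ligand, had 92.1, 88.9 and 84.99 CPM in siNC+H2O2+FV, against 6.86, 8.03 and 7.68 CPM in siNC+H2O2. Errfi1, which encodes an inhibitor of the EGF receptor, had 2561, 2438 and 2369 CPM in siNC+H2O2+FV, against 278, 275 and 274 CPM in siNC+H2O2. The groups were far apart in all 3, with log2 fold changes of 4.00 ± 0.09, 3.55 ± 0.08 and 3.15 ± 0.05, whereas Egfr itself changed by 0.20 ± 0.05 and Erbb2 by -0.39 ± 0.10. Areg, a further ligand, was too low to test, with 7, 5 and 12 counts in siNC+H2O2+FV and 0, 1 and 0 in siNC+H2O2. Among MAP kinase phosphatases and the SPRY and SPRED inhibitors 10 of 17 rose and 2 fell (median 0.52), led by Dusp5 with 79.8, 82.8 and 93.2 CPM in siNC+H2O2+FV, against 9.67, 8.09 and 11.04 CPM in siNC+H2O2 and Dusp10 (1.77 ± 0.07), while Dusp7 (-0.88 ± 0.10) and Spry1 (-0.38 ± 0.06) were lower. Of 12 regulators of mRNA decay 5 rose and 0 fell (median 0.19), among them Zc3h12a (1.66 ± 0.09), Btg2 (1.50 ± 0.04) and Zfp36 (1.21 ± 0.06), which destabilise short-lived transcripts.

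Srf itself and the genes of the actin cytoskeleton were higher. Srf had 151, 173 and 186 CPM in siNC+H2O2+FV, against 42.2, 46.9 and 49.1 CPM in siNC+H2O2, a log2 fold change of 1.88 ± 0.09. Of its cofactors, Elk4 rose (0.49 ± 0.07), Mrtfa (-0.26 ± 0.08) and Elk3 (-0.18 ± 0.06) fell, and Mrtfb (-0.05 ± 0.06), Elk1 (0.04 ± 0.07) and Myocd (0.31 ± 0.34) did not pass. The fall of Mrtfa was lost without siNC+H2O2+FV replicate 1 or siNC+H2O2 replicate 3, and that of Elk3 without siNC+H2O2+FV replicates 1 or 2 or any of the siNC+H2O2 replicates. Of 25 tested SRF/MRTF and actin genes 21 rose and 0 fell, with a median of 0.45, and summed over the list they reached 21168, 21438 and 21739 CPM in siNC+H2O2+FV, against 14848, 14862 and 15009 CPM in siNC+H2O2. Vinculin (Vcl), which links actin to adhesions, had 773, 785 and 732 CPM in siNC+H2O2+FV, against 373, 380.3 and 358 CPM in siNC+H2O2. Fermt2 (1.22 ± 0.05), Zyx (0.96 ± 0.10), Tpm1 (0.90 ± 0.05) and Actb (0.76 ± 0.07) belonged to the same group. Of 12 contractile genes of smooth muscle 10 rose and 0 fell (median 0.57), among them Cnn1 with 14.4, 14.6 and 12.7 CPM in siNC+H2O2+FV, against 3.77, 3.01 and 3.93 CPM in siNC+H2O2 and Lmod1 with 227, 246 and 255 CPM in siNC+H2O2+FV, against 83.7, 86.2 and 90.6 CPM in siNC+H2O2. Markers of smooth muscle and peritubular cells, which share Cnn1, Acta2, Actg2, Myh11 and Des with that list, summed to 1389 to 1521 CPM in siNC+H2O2+FV and 742 to 803 CPM in siNC+H2O2. Of these 8 markers 4 rose and 4 did not pass, and the part of these cells in the result was not tested.

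Promoters of these genes are shown because SRF binds the CArG box. The windows run from 250 bases before to 50 after the start site (RefSeq, GRCm38.p6, gene strand), with CArG boxes on either strand in capitals. Srf lies at chr17:46556113-46556412, Vcl at chr14:20929148-20929447, Egr2 at chr10:67537316-67537615 and Dusp5 at chr19:53528895-53529194, of which Srf is on the minus strand.
Srf: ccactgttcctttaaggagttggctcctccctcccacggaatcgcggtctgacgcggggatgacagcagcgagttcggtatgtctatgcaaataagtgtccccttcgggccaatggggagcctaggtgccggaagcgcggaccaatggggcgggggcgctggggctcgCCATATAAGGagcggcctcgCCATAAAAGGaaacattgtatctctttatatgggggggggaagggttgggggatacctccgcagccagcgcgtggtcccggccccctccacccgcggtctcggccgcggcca
Vcl: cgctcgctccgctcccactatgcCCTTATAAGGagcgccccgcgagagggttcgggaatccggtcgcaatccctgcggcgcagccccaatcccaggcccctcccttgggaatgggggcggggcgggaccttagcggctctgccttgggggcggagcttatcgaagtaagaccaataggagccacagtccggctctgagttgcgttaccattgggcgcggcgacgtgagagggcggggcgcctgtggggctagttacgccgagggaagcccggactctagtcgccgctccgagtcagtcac
Egr2: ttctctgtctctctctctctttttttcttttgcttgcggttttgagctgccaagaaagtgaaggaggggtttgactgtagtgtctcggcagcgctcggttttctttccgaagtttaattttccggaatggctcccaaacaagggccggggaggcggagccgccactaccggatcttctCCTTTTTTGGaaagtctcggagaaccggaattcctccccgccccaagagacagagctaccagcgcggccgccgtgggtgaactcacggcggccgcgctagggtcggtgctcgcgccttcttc
Dusp5: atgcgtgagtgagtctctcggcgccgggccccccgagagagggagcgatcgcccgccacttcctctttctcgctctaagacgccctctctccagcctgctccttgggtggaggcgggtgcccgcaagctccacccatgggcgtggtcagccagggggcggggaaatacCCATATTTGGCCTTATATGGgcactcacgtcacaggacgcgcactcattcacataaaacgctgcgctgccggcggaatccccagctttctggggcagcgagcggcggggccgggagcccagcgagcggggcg
Srf and Dusp5 each hold 2 such boxes and Vcl and Egr2 hold 1. Of the 23 SRF/MRTF and actin genes with a promoter in the table, 7 (30.4%) held a CArG box, against 179 of 11482 tested genes (1.56%) and 488 of 27025 genes in the table (1.81%). That list was assembled as SRF targets. The box was in 1 of 5 EGR and NR4A promoters, the Egr2 one shown, and in 0 of 13 AP-1 and 0 of 19 other early gene promoters. Among the genes higher by at least 1 on the log2 scale it was 12 of 216 (5.56%), and among those lower by as much 2 of 115 (1.74%). The cAMP response element in its palindromic form (TGACGTCA) was found in 19 of these 216 (8.8%) and in 384 of the tested genes (3.34%), and the AP-1 site (TGANTCA) in 27 (12.5%) and 763 (6.65%). These are matches of letters on either strand in a window of 300 bases, with no test.

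Genes that read cell tension and TGF-beta rose in part, with smaller medians than the actin genes. Of 20 YAP/TEAD targets 12 rose and 3 fell (median 0.23), while in siprdx1 9 rose and 4 fell (median -0.02). The SRF/MRTF and actin list in siprdx1 had 19 rises and 0 falls (median 0.50). The tissue factor gene F3 had 984, 1013 and 949 CPM in siNC+H2O2+FV, against 102, 103 and 95.2 CPM in siNC+H2O2, and Ankrd1 (1.70 ± 0.19), Ccn1 (0.86 ± 0.06) and Ccn2 (0.83 ± 0.05) were higher, while Amotl2, which holds YAP at junctions, was lower (-0.40 ± 0.07). In the TGF-beta list 10 of 21 rose and 1 fell (median 0.11), while in siprdx1 8 rose and 5 fell (median 0.05). Skil, which encodes an inhibitor of the pathway, had 356, 358 and 316 CPM in siNC+H2O2+FV, against 87.3, 94.5 and 82.9 CPM in siNC+H2O2 (1.96 ± 0.09). The inhibitor gene Smad7 (1.41 ± 0.08) and the ligand genes Inhba (1.03 ± 0.11) and Tgfb3 (1.03 ± 0.06) also passed, and the fall, Inhbb (-0.21 ± 0.06), was lost without siNC+H2O2+FV replicate 1 or siNC+H2O2 replicate 3. Of 26 integrin and focal adhesion genes 8 rose and 2 fell (median 0.06), a count of rises that became 5 without siNC+H2O2+FV replicates 1 or 2 and 4 without siNC+H2O2 replicate 3, while the falls became 1 without any of these or siNC+H2O2+FV replicate 3. The fibronectin receptor subunit gene Itga5 stood out, with 516, 548 and 544 CPM in siNC+H2O2+FV, against 136, 133 and 134 CPM in siNC+H2O2, and Nedd9, a docking protein of focal adhesions, was lower (-0.72 ± 0.06). Among 24 matrix genes 6 rose and 0 fell (median 0.03), with Thbs1, the gene of thrombospondin 1, at 3214, 3314 and 3251 CPM in siNC+H2O2+FV, against 701, 694 and 688 CPM in siNC+H2O2, while the collagen genes Col1a1 (-0.07 ± 0.10) and Col3a1 (-0.08 ± 0.05) did not pass.

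Enzymes of the mevalonate pathway, which fluvastatin blocks, moved in both directions. Of 9 tested members 3 rose and 2 fell (median 0.02). Idi1, the isomerase that makes the active isoprene unit, had 45.5, 37.96 and 35.2 CPM in siNC+H2O2+FV, against 32.3, 26.4 and 25.4 CPM in siNC+H2O2 (0.50 ± 0.14). Hmgcs1 (0.28 ± 0.08), which makes the precursor of mevalonate, also passed higher, and Mvd (-0.31 ± 0.07) and Acat2 (-0.18 ± 0.06) passed lower, while Ggps1 (0.12 ± 0.10), Pmvk (0.02 ± 0.06), Fdps (-0.04 ± 0.11) and Mvk (-0.20 ± 0.09) did not pass. Idi1 and Hmgcs1 were lost without siNC+H2O2+FV replicate 1 or siNC+H2O2 replicate 3, which left 1 rise, and Idi1 was also lost without siNC+H2O2 replicate 2. Acat2 passed with all libraries or without siNC+H2O2 replicate 2, and with any other library left out it did not.

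From squalene to cholesterol, 6 of 13 enzymes rose and 1 fell (median 0.10). Hsd17b7, a sterol ketoreductase, had 143, 146 and 134 CPM in siNC+H2O2+FV, against 76.5, 84.9 and 75.3 CPM in siNC+H2O2. It was followed by Lbr (0.35 ± 0.06), Cyp51 (0.31 ± 0.05), Sc5d (0.21 ± 0.06), Msmo1 (0.20 ± 0.07) and Lss (0.14 ± 0.05), and Ebp was lower (-0.24 ± 0.06). The 6 enzymes that did not pass, among them Sqle, Fdft1, Nsdhl, Dhcr7 and Tm7sf2, lay between -0.13 and 0.10. Msmo1 and Lss were lost without siNC+H2O2+FV replicates 1 or 2 or any of the siNC+H2O2 replicates, Sc5d without siNC+H2O2 replicate 3, and Ebp without siNC+H2O2+FV replicate 2 or siNC+H2O2 replicate 3. Scaling by library size alone left 3 higher and 4 lower. Of 17 genes of sterol sensing and uptake 4 rose and 2 fell (median 0.05), against 13.5% and 11.3% of all genes, and 0 fell without siNC+H2O2+FV replicates 1 or 2 or siNC+H2O2 replicates 1 or 3. Among the rises, the cholesterol carrier gene Stard4 (0.39 ± 0.07) and Insig1 (0.37 ± 0.06), which retains SREBP in the endoplasmic reticulum, were higher. Of 12 genes of sterol storage and of LXR, which senses oxysterols, 1 rose and 3 fell (median -0.05), with 2 rises without siNC+H2O2+FV replicate 3, the falls being Ch25h (-0.70 ± 0.09), Nr1h3 (-0.57 ± 0.12) and Apoc1 (-0.45 ± 0.14), the last of which was lost without siNC+H2O2+FV replicate 1 or siNC+H2O2 replicates 1 or 2. Of 18 genes of coenzyme Q and dolichol synthesis 1 rose and 4 fell (2 rose without siNC+H2O2 replicate 2). The rise was Coq10b, a coenzyme Q binding protein, with 129, 116 and 106 CPM in siNC+H2O2+FV, against 40.1, 33.2 and 36.4 CPM in siNC+H2O2. The promoter of Hmgcs1, an SREBP2 target, holds the sterol element (TCACNCCAC, in capitals) and is the only 1 of 7 mevalonate promoters in the table to do so, against 162 of 11482 tested genes (1.41%). It lies on the plus strand at chr13:119690101-119690400.
Hmgcs1: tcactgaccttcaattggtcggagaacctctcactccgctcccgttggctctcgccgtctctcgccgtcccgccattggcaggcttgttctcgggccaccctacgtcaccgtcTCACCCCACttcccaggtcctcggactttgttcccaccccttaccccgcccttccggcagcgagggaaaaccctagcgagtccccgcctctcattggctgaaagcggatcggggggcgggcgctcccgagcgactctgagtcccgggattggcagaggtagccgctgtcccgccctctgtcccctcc

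**Figure D2:**
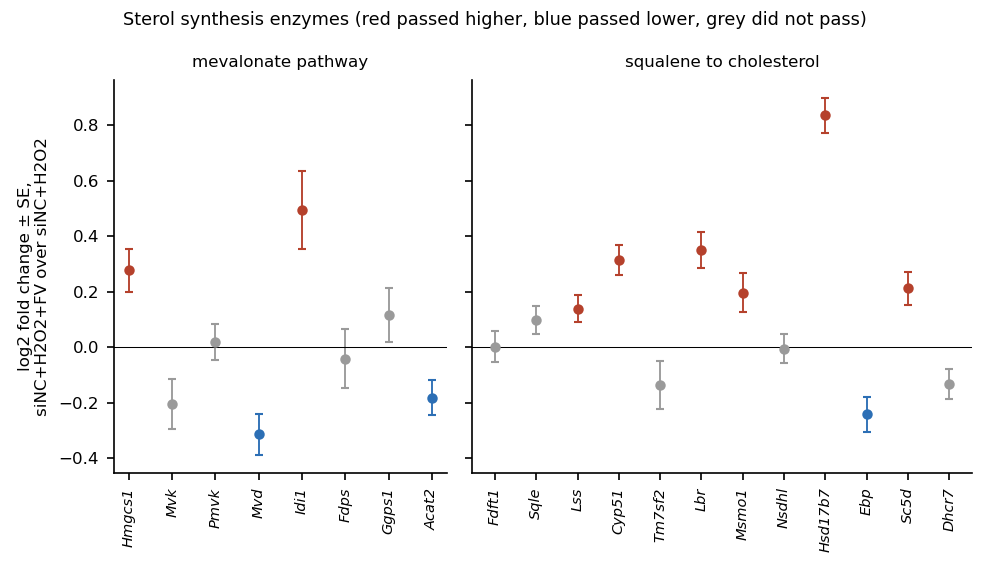
Log2 fold change (siNC+H2O2+FV over siNC+H2O2) with its SE for enzymes of the mevalonate pathway and from squalene to cholesterol that the text names, coloured red where a gene passed higher, blue where it passed lower and grey where it did not pass. Idi1 (0.50) and Hsd17b7 (0.84) are the highest points of their panels, which do not show every tested member of either list.

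Small GTPase genes, whose proteins take lipid anchors made from mevalonate, changed in both directions. Rhob, known to rise with statins in other cells, had 519.5, 475 and 537 CPM in siNC+H2O2+FV, against 331, 308 and 351 CPM in siNC+H2O2 and 178 CPM on average in siNC. Its fluvastatin libraries were clear of the siNC+H2O2 libraries (0.63 ± 0.07). Of 23 Ras and Rap genes 5 rose (21.7%) and 6 fell (26.1%), with a median of 0.02, against 13.5% and 11.3% of all genes. Rheb, an activator of mTORC1 that is itself farnesylated, had 214, 203 and 194 CPM in siNC+H2O2+FV, against 107, 111 and 111 CPM in siNC+H2O2, while Rap2b (-0.43 ± 0.06) and Rit1 (-0.34 ± 0.08) were lower. The 5 rises became 2 without siNC+H2O2+FV replicates 1 or 2 and 3 without siNC+H2O2 replicate 3. Of 13 prenylation enzymes 2 rose (15.4%), near the share of all genes, and 0 fell (median -0.01). The 2 were Chml (0.45 ± 0.13) and Pggt1b (0.29 ± 0.09). Both were lost without siNC+H2O2+FV replicate 1 or siNC+H2O2 replicate 3, and leaving out siNC+H2O2+FV replicate 1 also gave 1 fall. Pggt1b was lost without siNC+H2O2+FV replicate 2 or siNC+H2O2 replicate 1, and 4 rose without siNC+H2O2+FV replicate 3.

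Interferon-induced genes were lower. Of 43 tested effectors 28 fell and 0 rose, with a median of -0.32, against 11.3% of all genes lower. Ifit1, a binder of viral RNA, had 17.7, 13.4 and 13.1 CPM in siNC+H2O2+FV, against 23.6, 21.99 and 21.96 CPM in siNC+H2O2. Cmpk2, a mitochondrial nucleotide kinase, had 6.16, 5.76 and 6.10 CPM in siNC+H2O2+FV, against 11.8, 12.4 and 12.04 CPM in siNC+H2O2, and Rtp4 had 9.81, 12.8 and 10.00 CPM in siNC+H2O2+FV, against 21.4, 20.03 and 19.6 CPM in siNC+H2O2. The fluvastatin libraries were below all siNC+H2O2 libraries in each, at -0.62 ± 0.10, -1.01 ± 0.10 and -0.90 ± 0.10. Ifit3 (-1.12 ± 0.08) and Ifit3b (-1.18 ± 0.14) fell more but are near-identical to each other (97.8% over 1700 bases). Summed over the list, the level was 1431, 1372 and 1434 CPM in siNC+H2O2+FV, 1664, 1674 and 1733 CPM in siNC+H2O2, and 1552 to 1641 CPM in siNC, so the fluvastatin libraries were below both. Genes of IRF and STAT factors and receptors moved in both directions. Stat2 (-0.51 ± 0.06), Irf1 (-0.50 ± 0.08), Irf8 (-0.46 ± 0.06), Irf9 (-0.39 ± 0.06) and Irf7 (-0.39 ± 0.06) were among 9 of 23 that passed lower. Stat3 (0.63 ± 0.04) and Socs3 (0.83 ± 0.07), an inhibitor of cytokine receptors, were among 6 that passed higher, a number that became 3 without siNC+H2O2+FV replicate 2 or siNC+H2O2 replicate 1. Of 17 genes of MHC class I presentation 7 fell and 0 rose (median -0.20), among them Psmb8 (-0.35 ± 0.08), a subunit of the immunoproteasome. That count became 2 without siNC+H2O2+FV replicate 2 or siNC+H2O2 replicate 1, 4 without siNC+H2O2+FV replicate 1 and 3 without siNC+H2O2 replicate 3. Macrophages express many of these genes, and 9 of the 20 macrophage markers also fell and 1 rose, with C1qa at -0.34 ± 0.07, Lyz2 at -0.25 ± 0.05 and Cd14 at 0.44 ± 0.06, against log2 fold changes of -0.10 for Itgam and -0.09 for Csf1r. Their part in the fall of the interferon genes was not tested.

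Promoters of 3 genes that fell are shown with the interferon-stimulated response element (TTTCNNTTTC on either strand) in capitals. They lie at chr19:34640639-34640938 for Ifit1 and chr10:128270248-128270547 for Stat2, both on the plus strand, and at chr12:26456403-26456702 for Rsad2 on the minus strand.
Ifit1: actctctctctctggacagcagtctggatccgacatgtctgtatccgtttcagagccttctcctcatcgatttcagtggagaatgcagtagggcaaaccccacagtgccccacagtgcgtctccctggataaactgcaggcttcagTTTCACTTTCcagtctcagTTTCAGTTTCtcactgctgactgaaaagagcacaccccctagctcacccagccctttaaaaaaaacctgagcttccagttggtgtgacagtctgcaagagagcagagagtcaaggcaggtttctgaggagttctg
Rsad2: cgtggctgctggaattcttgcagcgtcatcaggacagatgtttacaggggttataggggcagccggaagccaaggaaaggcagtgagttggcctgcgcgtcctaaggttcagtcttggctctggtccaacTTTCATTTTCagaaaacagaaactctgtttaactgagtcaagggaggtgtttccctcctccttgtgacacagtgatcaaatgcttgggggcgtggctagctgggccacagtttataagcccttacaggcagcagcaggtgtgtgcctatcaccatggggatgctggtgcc
Stat2: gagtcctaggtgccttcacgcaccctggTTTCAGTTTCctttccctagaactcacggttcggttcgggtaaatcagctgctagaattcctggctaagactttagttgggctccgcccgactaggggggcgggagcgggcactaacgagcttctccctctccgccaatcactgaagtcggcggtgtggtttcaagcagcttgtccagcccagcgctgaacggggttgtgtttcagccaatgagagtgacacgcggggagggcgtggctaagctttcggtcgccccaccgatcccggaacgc
Ifit1 holds the element at 2 places and the others at 1. It was found in 17 of 31 interferon-induced effectors with a promoter in the table (54.8%), against 452 of 11482 tested genes (3.94%), and in 8 of 115 genes lower by at least 1 on the log2 scale (6.96%). The effector list was assembled as interferon-induced genes, so its share does not bear on the fall with fluvastatin, and no test was run.

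Cytokine genes moved against the interferon genes. Of 17 tested cytokines and prostaglandin enzymes 9 rose and 0 fell (median 0.32). Lif, a cytokine of the interleukin 6 family, had 73.7, 72.5 and 73.4 CPM in siNC+H2O2+FV, against 9.05, 11.5 and 11.1 CPM in siNC+H2O2, Ptgs2 had 74.9, 67.5 and 61.7 CPM in siNC+H2O2+FV, against 4.89, 6.61 and 4.01 CPM in siNC+H2O2, and Il6 had 4.88, 4.23 and 3.30 CPM in siNC+H2O2+FV, against 1.86, 1.59 and 1.04 CPM in siNC+H2O2. Il1b was too low to test, with 12, 2 and 8 counts in siNC+H2O2+FV and 0 in each siNC+H2O2 library. The chemokines divided, as 6 of 18 rose and 4 fell (median 0.06). Cxcl1, which draws neutrophils, had 18.4, 19.4 and 19.2 CPM in siNC+H2O2+FV, against 7.31, 8.51 and 7.08 CPM in siNC+H2O2, and Ccl2 was higher too (0.60 ± 0.08), whereas Ccl3 (-0.69 ± 0.07), Ccl12 (-0.53 ± 0.10) and Ccl4 (-0.42 ± 0.10) were lower. Of 20 NF-kappaB subunits and feedback genes 8 rose and 4 fell (median 0.14), among them the subunit Rel (1.47 ± 0.09) and Nfkbiz (1.29 ± 0.08) upward and Tnip1 (-0.37 ± 0.09) downward.

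The NRF2 list, genes of the antioxidant response, changed in part. Of 23 targets 8 rose (34.8%) and 0 fell, with a median of -0.01, against 13.5% of all genes higher and 11.3% lower. Txnrd1, the gene of thioredoxin reductase 1, had 803, 773 and 769 CPM in siNC+H2O2+FV, against 258, 251 and 261 CPM in siNC+H2O2, Srxn1, which repairs overoxidised peroxiredoxins, had 687, 673 and 649 CPM in siNC+H2O2+FV, against 235, 224 and 228 CPM in siNC+H2O2, and Hmox1, the gene of heme oxygenase 1, had 1944, 2050.1 and 2137 CPM in siNC+H2O2+FV, against 844, 844 and 865 CPM in siNC+H2O2. The fluvastatin libraries were above all siNC+H2O2 libraries in each (1.61 ± 0.04, 1.55 ± 0.05 and 1.26 ± 0.05). Osgin1 (1.63 ± 0.10), Gclc (1.37 ± 0.05) and Slc7a11 (0.98 ± 0.12), the last a cystine transporter, rose as well, while Nqo1 had 0.18 ± 0.07 and did not pass. With scaling by library size alone 7 members were higher and 6 lower, and 2 were lower without siNC+H2O2+FV replicate 3. Among regulators of the pathway, the repressor gene Bach1 was higher (1.08 ± 0.06), Nfe2l2, which encodes NRF2, was higher (0.29 ± 0.05), and Keap1, which marks NRF2 for destruction, was lower (-0.33 ± 0.07). Outside this list, 1 of 26 peroxiredoxins and antioxidant enzymes rose (3.85%) and 4 fell (15.4%), the latter near the share of all genes. The median was -0.10, and 13 fell with library size alone. Txnip, the inhibitor of thioredoxin, had 1051, 1075 and 1043 CPM in siNC+H2O2+FV, against 1880.3, 1848 and 1785 CPM in siNC+H2O2 (-0.80 ± 0.05), and the rise was Sesn2 (0.48 ± 0.10).

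Chaperones of the heat shock response were higher in part, with 11 of 23 members up and 1 down (median 0.17). Dnajb4 had 415, 411 and 362 CPM in siNC+H2O2+FV, against 94.6, 105 and 85.03 CPM in siNC+H2O2 and Dnajb1 had 274, 272 and 295 CPM in siNC+H2O2+FV, against 75.2, 75.5 and 77.5 CPM in siNC+H2O2. Both groups of libraries were well apart (2.06 ± 0.10 and 1.88 ± 0.05), while Ahsa1, a cofactor of HSP90, was lower (-0.34 ± 0.05). Of 24 genes of the integrated stress response 10 rose and 2 fell (median 0.16), led by Chac1 (1.99 ± 0.15), Slc7a1 (1.38 ± 0.05) and Cebpb (1.13 ± 0.27), with Atf4, its main factor, at 0.58 ± 0.05. The 2 falls became 1 without siNC+H2O2+FV replicate 1 or any of the siNC+H2O2 replicates. Of 31 proteasome subunits 0 passed in either direction, and 2 passed higher without siNC+H2O2 replicate 2.

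In steroid synthesis 3 of 12 tested genes rose and 3 fell (25% each, median -0.09), against 13.5% and 11.3% of all genes. The falls became 1 without siNC+H2O2+FV replicate 2 or siNC+H2O2 replicates 1 or 3. Star, the mitochondrial cholesterol carrier that limits steroid synthesis, had 492, 529.6 and 485 CPM in siNC+H2O2+FV, against 193, 212 and 189.7 CPM in siNC+H2O2 and 195 CPM on average in siNC, and Fdx1, which passes electrons to the side-chain cleavage enzyme, had 188, 179 and 172 CPM in siNC+H2O2+FV, against 85.2, 84.5 and 88.2 CPM in siNC+H2O2. Neither gene overlapped between the groups (1.34 ± 0.05 and 1.06 ± 0.07). Por was higher (0.22 ± 0.07), a call lost without siNC+H2O2+FV replicate 3 or siNC+H2O2 replicate 1. Cyp11a1 had 0.06 ± 0.04 (adjusted p = 0.332) and -0.04 when scaled by library size alone, and Fdxr (-0.06 ± 0.08), Cyb5a (-0.06 ± 0.05), Stard3 (-0.11 ± 0.09), Tspo (-0.20 ± 0.08) and Srd5a1 (-0.29 ± 0.18) did not pass. Lipe, a lipase that frees cholesterol from esters, fell (-0.55 ± 0.10), and Hsd3b6 (-0.40 ± 0.12) and Hsd3b1 (-0.16 ± 0.05) passed lower but lost the call without siNC+H2O2+FV replicate 2 or siNC+H2O2 replicates 1 or 3. Hsd3b6 also lost it without siNC+H2O2+FV replicate 1, and Hsd3b1 without siNC+H2O2+FV replicate 3 or siNC+H2O2 replicate 2.

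Several factors of Leydig and stromal identity were lower. Of 21 tested members 8 fell (38.1%) and 3 rose (14.3%), with a median of -0.27, against 11.3% of all genes lower and 13.5% higher. Nr2f2, a nuclear receptor of interstitial progenitors, had 45.5, 53.4 and 46.4 CPM in siNC+H2O2+FV, against 113, 125 and 122 CPM in siNC+H2O2. Tcf21, a factor of testis stroma, had 128, 136 and 148 CPM in siNC+H2O2+FV, against 278, 262 and 289 CPM in siNC+H2O2. In both the fluvastatin libraries were below all siNC+H2O2 libraries (-1.31 ± 0.07 and -1.01 ± 0.07). Further falls were Ptch1 (-0.73 ± 0.07), the receptor of hedgehog ligands, Lhx9 (-0.70 ± 0.09), Maf (-0.46 ± 0.08), Nr5a1 (-0.36 ± 0.07), the master factor of steroidogenic genes, and Pdgfra (-0.34 ± 0.04). Lhcgr, the LH receptor gene, had 0.32 ± 0.19 and did not pass. The 3 rises, Gata4, Prlr and Nr3c1, were at most 0.29, and 0 were left without siNC+H2O2+FV replicates 1 or 2 or siNC+H2O2 replicates 1 or 3. Sox9, a Sertoli cell factor that stromal cells can also express, was higher, with 33.7, 31.8 and 35.9 CPM in siNC+H2O2+FV, against 14.4, 13.5 and 13.3 CPM in siNC+H2O2. It was the single rise among 7 tested Sertoli markers, while 1 fell and 5 did not pass. Omitting siNC+H2O2 replicate 3 alone gave 2 rises and 0 falls, as did omitting siNC+H2O2+FV replicate 1 alone. The fall also went when siNC+H2O2 replicate 1 alone was omitted, and when siNC+H2O2+FV replicate 3 alone was omitted. Of 27 tested HOX genes 7 fell (25.9%) and 2 rose (7.41%), with a median of -0.38. The falls included Hoxd10 (-0.71 ± 0.08), Hoxd9 (-0.52 ± 0.07) and Hoxb4 (-1.08 ± 0.23), and Hoxb9 rose (0.62 ± 0.11).

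**Figure D3:**
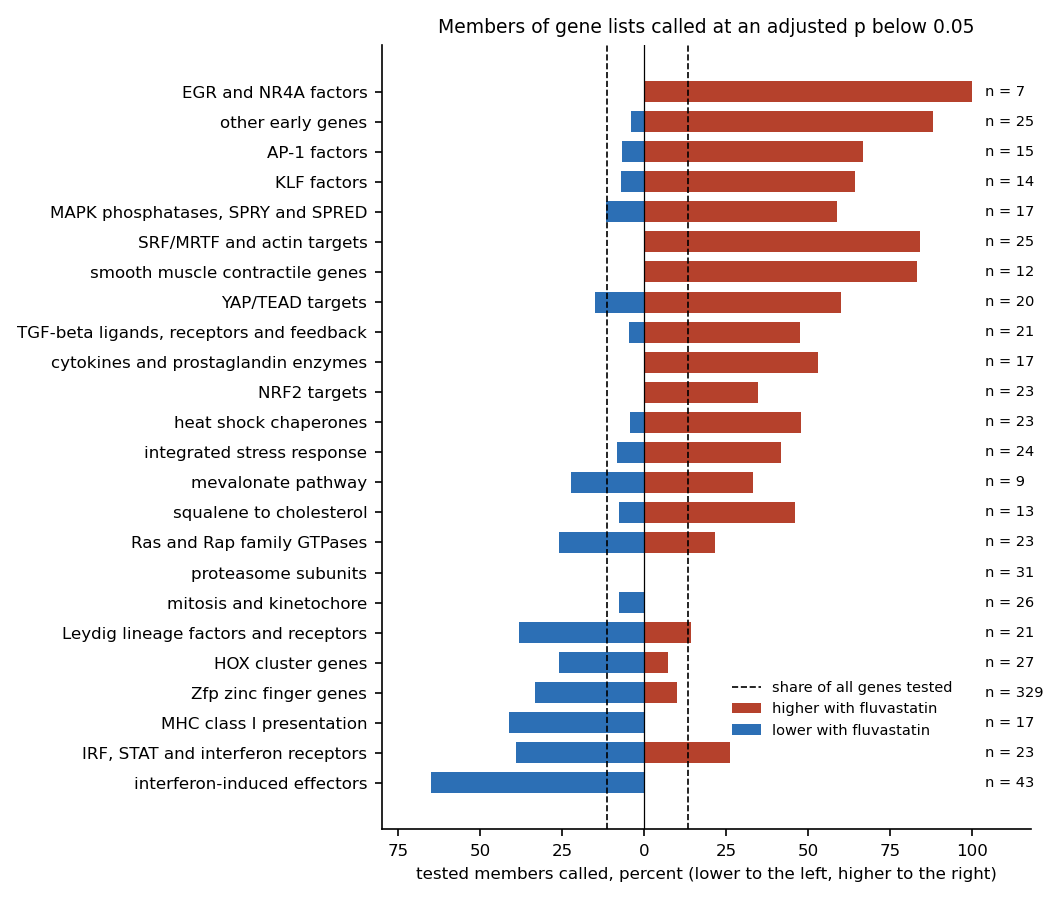
Share of tested members called higher (red, to the right) or lower (blue, to the left) in siNC+H2O2+FV than in siNC+H2O2 for 24 gene lists, with dashed lines at the shares of all genes tested (13.5% and 11.3%). The EGR and NR4A list reaches 100% higher and the interferon-induced effectors 65.1% lower.

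The largest falls were smaller than the largest rises. Among genes of at least 1 CPM the 16 largest ranged from -1.49 to -2.22. Ppp1r3c, which targets protein phosphatase 1 to glycogen, had 0.56, 0.886 and 0.551 CPM in siNC+H2O2+FV, against 2.59, 4.07 and 2.67 CPM in siNC+H2O2, and Pabpc4l, a poly(A) binding protein gene, had 1.12, 0.64 and 0.734 CPM in siNC+H2O2+FV, against 3.94, 4.18 and 3.49 CPM in siNC+H2O2. Adamts15 (-1.79 ± 0.18), Kbtbd11 (-1.89 ± 0.29), Klf15, Tfap4 (-1.66 ± 0.18), Zc2hc1c (-1.70 ± 0.37), the histone gene H4f16 (-1.58 ± 0.34) and the ephrin gene Efna1 (-1.54 ± 0.25) were on this list, of which H4f16 belongs to a family of near-identical histone genes and is uncertain. The other 7 carry Zfp or Zkscan symbols, with Zkscan4 (-1.89 ± 0.23), Zfp128 (-1.62 ± 0.17), Zfp273 (-1.59 ± 0.24), Zfp324 (-1.56 ± 0.10), Zfp94 (-1.51 ± 0.17), Zfp647 (-1.49 ± 0.19) and Zfp85 (-1.49 ± 0.23). Of 39 tested ZKSCAN, ZSCAN and ZBTB genes 16 fell (41.0%) and 7 rose (17.9%), with a median of -0.02, against 11.3% and 13.5% of all genes. Among all 329 tested genes with a Zfp symbol, a list made after the falls were seen, 110 were lower (33.4%) and 33 higher (10.0%). The median was -0.16. Of 13 genes of glycogen handling 6 fell (46.2%), among them Ppp1r3b (-0.72 ± 0.12) beside Ppp1r3c, and 1 rose (7.69%). The 6 became 3 without siNC+H2O2 replicate 3, and the rise was lost without siNC+H2O2+FV replicates 1 or 2 or siNC+H2O2 replicates 1 or 3.

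Genes of cell death and growth changed in part, to be read against 13.5% of all genes higher and 11.3% lower. In the BCL2 family 3 of 17 rose and 5 fell. The death-promoting genes Pmaip1 with 18.8, 15.5 and 14.5 CPM in siNC+H2O2+FV, against 5.57, 4.28 and 4.62 CPM in siNC+H2O2 and Bcl2l11 (1.01 ± 0.09) rose, as did the protective Mcl1 (0.37 ± 0.08). Bmf, also death-promoting, had 9.19, 7.58 and 7.66 CPM in siNC+H2O2+FV, against 18.9, 22.1 and 21.4 CPM in siNC+H2O2, and Bcl2l1, which is protective, was lower (-0.34 ± 0.06). The 5 falls became 3 without siNC+H2O2+FV replicate 1 or siNC+H2O2 replicate 1. Of 25 p53 targets 10 rose and 3 fell (median 0.17), among them Mdm2 (0.76 ± 0.06) and Cdkn1a (0.49 ± 0.06), and Trp53 itself had -0.19 ± 0.07 and did not pass. The 3 falls became 1 without siNC+H2O2+FV replicate 2 or siNC+H2O2 replicate 1. Of 34 genes of G1/S and DNA replication 4 rose (11.8%) and 5 fell (14.7%), near the shares of all genes. The falls included the inhibitor genes Cdkn1b (-0.54 ± 0.09) and Cdkn2b (-0.55 ± 0.07). Those rises became 2 without siNC+H2O2+FV replicates 1 or 2 or siNC+H2O2 replicates 1 or 3, and the falls 3 without siNC+H2O2+FV replicate 1. Of 26 genes of mitosis 0 rose (1 without siNC+H2O2+FV replicate 1) and 2 fell, Plk1 (-0.38 ± 0.08) and Cdk1 (-0.27 ± 0.06). Of 24 genes of glycolysis and hypoxia 6 rose and 4 fell (median -0.07), and leaving out siNC+H2O2+FV replicate 2 or siNC+H2O2 replicate 1 left 1 fall, while leaving out siNC+H2O2 replicate 3 left 2. Hk2, the inducible hexokinase, had 378, 397 and 403 CPM in siNC+H2O2+FV, against 96.6, 105 and 109 CPM in siNC+H2O2, and the glucose transporter gene Slc2a1 was higher (1.31 ± 0.08). In the circadian clock list 7 of 19 rose and 2 fell (median 0.08), with Bhlhe40, a repressor, at 1.86 ± 0.06, Per2 at 0.69 ± 0.09 and Dbp at -0.56 ± 0.09. Of 13 mitochondrially encoded transcripts 9 rose and 0 fell (median 0.47), a count that became 5 without siNC+H2O2+FV replicate 1. All genes with an mt- symbol, not these 13 alone, held 1.44% ± 0.128 of counts in siNC+H2O2+FV and 1.18% ± 0.0493 in siNC+H2O2 (SD, n = 3 each). An exact two-sided permutation test of this mitochondrial share gave p = 0.1, the smallest that 3 against 3 libraries allow.

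Of all genes tested, Hk2, Errfi1, Itga5, Fosl2 and F3 had log2 CPM patterns most like that of Egr3 over the 18 libraries, with Pearson correlations of 0.997 to 0.999. The 18 libraries fall into fluvastatin and other groups, so these values mostly restate the difference between them.

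The same treatment in siprdx1 cultures, which shares no library with this comparison, gave 2066 higher genes (12.6%) and 1810 lower genes (11.0%). Of these, 1409 were also higher in siNC, which is 68.2% of the siprdx1 and 63.3% of the siNC list, and 1089 were also lower, 60.2% and 58.4%. Of the 4090 genes called in siNC, 3729 (91.2%) had the same sign in siprdx1, against 68.7% of all genes tested. A test of the difference between the arms called 76 genes (0.463%) as more positive in siprdx1 and 31 (0.189%) as more negative. Of these 107, 89 were called in siNC, and 54 of the 89 had the same sign in both arms. The 31 became 53 without siprdx1+H2O2 replicate 2 and 6 to 11 without any of siNC+H2O2 replicates 1 or 3, siNC+H2O2+FV replicates 1 or 2, siprdx1+H2O2 replicates 1 or 3 or the siprdx1+H2O2+FV replicates, and the 76 became 49 without siprdx1+H2O2+FV replicate 1.

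Several early genes had larger fluvastatin effects in the knockdown. Fos had 223, 221 and 218 CPM in siprdx1+H2O2+FV, against 111, 120.3 and 117 CPM in siprdx1+H2O2. All siprdx1 fluvastatin libraries lay above their controls there, the opposite of the order in siNC, with a log2 fold change of 0.93 ± 0.06 in siprdx1 and -0.32 ± 0.06 in siNC. Arc had 4.58 ± 0.09 and 2.70 ± 0.08, Fosb 6.37 ± 0.09 and 4.80 ± 0.08, and Btg2 2.57 ± 0.04 and 1.50 ± 0.04 in siprdx1 and siNC, and each of these differences passed (adjusted p = 1.04e-08 for Fos, 7.43e-10 for Arc, 1.04e-08 for Fosb and 1.47e-10 for Btg2). Their levels under fluvastatin and without it both differed between the arms, as Arc averaged 498 CPM in siprdx1+H2O2+FV and 20.8 CPM in siprdx1+H2O2, against 427 and 65.5 CPM in siNC. Of the 76 genes more positive in siprdx1, 58 had a lower mean in siprdx1+H2O2 than in siNC+H2O2. The other genes of the EGR and NR4A list that passed this test were Nr4a1, Egr1 and Egr2, while Egr3 rose by 8.22 ± 0.09 and 7.80 ± 0.09 with no difference called (adjusted p = 0.306).

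Interferon-induced genes differed by arm. Of the 43 effectors 3 fell and 11 rose with fluvastatin in siprdx1, with a median of 0.09, against 28 and 0 in siNC. The difference was positive for 40 of 43 and passed for 12, among them Ifit3 (1.36 ± 0.11), Rsad2 (1.62 ± 0.17) and Cmpk2 (0.90 ± 0.14). Summed over the list the level was 1938, 1913 and 1887 CPM in siprdx1+H2O2+FV and 1810, 1865 and 1850 CPM in siprdx1+H2O2. The macrophage marker sum moved the same way, with 10035, 9622 and 9571 CPM in siprdx1+H2O2+FV and 9360, 9120 and 9217 CPM in siprdx1+H2O2, and its part was not tested. Rhob rose more in siprdx1 (1.15 ± 0.07) than in siNC (0.63 ± 0.07, adjusted p of the difference = 0.00944). Klf2, which did not pass in siNC, rose by 0.82 ± 0.09 in siprdx1 (adjusted p of the difference = 0.0184), a difference lost without siNC+H2O2 replicates 1 or 3, siNC+H2O2+FV replicates 1 or 2 or siprdx1+H2O2+FV replicate 2. The 4 clearest differences in the other direction were Fbn1 (-0.34 ± 0.06), Pde3a (-0.64 ± 0.11), Ermp1 (-0.48 ± 0.09) and Slc38a2 (-0.52 ± 0.09), in each of which the fluvastatin effect was more negative in siprdx1 than in siNC. No member of the mevalonate, squalene, SRF or smooth muscle lists differed between the arms, though a difference that did not pass does not show equal effects.

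**Figure D4:**
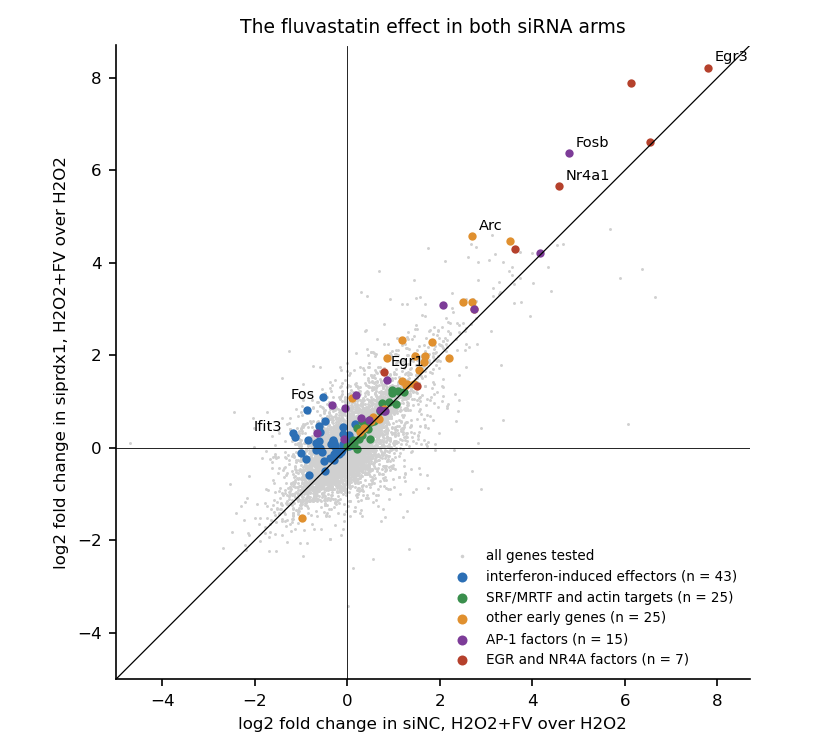
Log2 fold change with fluvastatin (H2O2+FV over H2O2) in siNC on the x axis and in siprdx1 on the y axis for each tested gene, with 5 gene lists in colour and the line of equal change. Fos and 38 of the 43 interferon-induced effectors lie left of zero on the x axis, and Fos and 27 of the effectors lie above zero on the y axis.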

How the data were processed

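Poly(A) RNA of 18 primary mouse Leydig cell cultures was sequenced, with a stranded kit per the labels' protocols. A single table of raw read counts per gene was deposited by the authors. HISAT2, HTSeq and the mm10 build are named without versions, per the submitters' processing notes, and the annotation and the strand setting of the counting are not given in the sources used here. Columns were matched to groups through their names and the labels.

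From the deposited counts, CPM and all tests were computed with edgeR 4.0.16 in R 4.3.3 (TMM, filterByExpr, robust quasi-likelihood fit of 6 group means to 18 libraries, 12 residual degrees of freedom), with Benjamini-Hochberg adjustment over the 16432 genes tested and a threshold of 0.05. The same fit gave the fluvastatin effect in siprdx1 and the difference between the arms. The steps were tested on simulated data. Gene positions and overlaps come from GENCODE vM21 (GRCm38), copies from blastn at 95% identity or more, and promoters from RefSeq. Counts in reads limit the precision of low genes, and the intervals of ratios cover counting error only. Alternatives were RLE factors, library size alone, no low-count filter, a replicate block, only the groups compared, DESeq2 1.42.0, leaving out each library, and a minimum log2 fold change of 1.

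The members and gene lists were chosen with earlier results of these data known, and the Zfp list after the falls were seen. Genes named were the 16 largest changes in each direction (at least 1 CPM on average over the 6 libraries, groups not overlapping, no clone symbols), up to 6 members per list and direction with the smallest p, whole lists for sterol synthesis, EGR and NR4A, steroid synthesis, SRF and KLF, the 4 smallest p of the difference between arms in each direction, a fixed set that includes Prdx1 and Star, and the 5 genes most like Egr3. Outside this rule Ier3, Myc, Junb, Zyx, Ifit1, Maf, Nr5a1, Rsad2, Cebpb, Jun, Trp53, Nqo1, Csf1r, Lhcgr, Col3a1, Itgam and Col1a1, and the untested Areg, Il1b, Cyp17a1 and Hsd17b3, were chosen after their values were seen. Not every gene or list that this rule names is reported here.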

Additional observations from a re-analysis of the deposited data

Results flagged for a closer look

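Of the genes named above, 35 had a fluvastatin effect that differed between the arms at an adjusted p below 0.05 in edgeR's test of the difference (siprdx1 minus siNC, log2, 3 libraries per group). Among all genes tested this was 0.463% more positive and 0.189% more negative in siprdx1. Early response genes and their regulators made up the largest group, all more positive in siprdx1, with Btg2 (1.06), Arc (1.87), Fos (1.25), Fosb (1.57), Nr4a1 (1.07), Atf3 (1.03), Egr1 (0.85), Jun (0.97), Egr2 (0.67), Zfp36 (0.60), Plk3 (0.66), Junb (0.60), Klf2 (0.62) and Noct (0.51). In all of these except Fos, Jun and Klf2 the rise in siNC passed too. Interferon, chemokine and NF-kappaB genes came next, with Ifit3 (1.36), Rsad2 (1.62), Ifit1 (1.09), Ifit3b (1.51), Cmpk2 (0.90), Irf7 (0.50), Rtp4 (0.65), Cxcl1 (1.04), Nfkbiz (0.72), Ccl3 (0.56) and Ccl2 (0.57). Further positive differences were those of Dnajb1 (0.72), Rhob (0.52), Slc2a1 (0.51) and Smad7 (0.48). The negative differences were those of Fbn1 (-0.34), Pde3a (-0.64), Ermp1 (-0.48), Slc38a2 (-0.52), Pdgfra (-0.27) and Cdkn1b (-0.53). The calls of Ccl2, Cdkn1b, Junb, Klf2, Noct, Pdgfra, Plk3, Rtp4, Slc2a1 and Smad7 were lost when at least 1 library was left out.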

How the results depend on the processing

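RLE factors (2261 higher, 1827 lower), no low-count filter (2283, 1766), only the groups compared (2352, 1773) and DESeq2 (2254, 1758) kept the counts of genes called in siNC within 1.5 times, and leaving out 1 library gave 1733 to 2226 higher and 1344 to 1757 lower. Library size alone gave 1474 higher and 3835 lower in siNC and 3634 lower in siprdx1, as it lowers the median gene, and a minimum log2 fold change of 1 left 406 and 179. Of 134 counts of list members called in siNC, library size alone moved 49 by over 1.5 times, the replicate block 25, no low-count filter 12, only the groups compared 9, DESeq2 4 and RLE factors 0, and leaving out 1 library moved 9 to 28. The test of the difference between the arms was less stable, with 168 more positive and 113 more negative without a filter, 126 and 103 by DESeq2, 14 more negative with only the groups compared, and 49 to 83 and 6 to 53 with 1 library left out; the cause was not tested. The difference in mitochondrial share, 0.258 percentage points, was 0.185 to 0.305 with 1 library left out. With the replicate number as a block, 2900 genes were higher and 2544 lower in siNC, 2625 and 2381 in siprdx1, and 382 and 417 differed between the arms. The numbers share no stated animal or day, and same-numbered libraries deviated together by correlations of 0.10, 0.06 and 0.16, each highest for its own number, which is a hint from the data and not the design.

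Reversals touched genes that did not pass. Library size alone gave -0.0401 for Cyp11a1, -0.0661 for Elk1, -0.018 for Ermp1, -0.10 for Fdft1, -0.0844 for Pmvk and -0.0043 for Sqle, and only the groups compared gave 0.000467 for Nsdhl. With 1 library left out the ranges crossed zero for Elk1 (-0.0243 to 0.11), Fdft1 (-0.0397 to 0.051), Fdps (-0.12 to 0.00228), Klf8 (-0.00273 to 0.27), Nsdhl (-0.0224 to 0.00916) and Pmvk (-0.00665 to 0.047).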
